A study of Mus musculus with 2 samples.

Results

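A stretch of mouse chromosome 12 between 23 and 25 Mb (mm9 build) held 240 of the 41561 regions in which trimethylation of lysine 4 on histone H3 (H3K4me3) was called higher in Mll-PTD than in wild-type (WT) blood progenitors. The regions were chosen by position alone, as every region of the deposited list of chromosome 12 that starts at or after 23000000 and before 25000000, after the crowding there had been seen in the same data. They made up 0.577% of the list and 11.2% of the 2143 listed regions of chromosome 12. The list itself was called with a threshold of 4-fold more tags in Mll-PTD than in WT, so the direction of the difference was fixed by the way the list was made, and all values below are a description without a test.

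The libraries came from bone marrow of C57BL/6 mice, 1 from WT animals and 1 from animals heterozygous for the Mll-PTD knock-in, which carries a partial tandem duplication in the Mll gene. Cells were concentrated on magnetic beads for CD117 (the KIT receptor) and then for Sca1, and are labelled LSK, the fraction rich in blood stem and progenitor cells. Age, sex and the number of animals per library are not given in the sources used here. Both libraries were immunoprecipitated with the H3K4me3 antibody ab8580 from Abcam. The listed regions carry no gene names, so the cell label could not be checked against markers. The Mll-PTD library held 58083118 tags (mapped reads), per the file header. The size of the WT library, 43579382 tags, is a least-squares estimate from the scaled and the normalized Mll-PTD tags of all listed regions. Mll-PTD values are given after scaling to the WT size, as deposited. With 1 library per genotype no value has a replicate error. Intervals of ratios are exact (Clopper-Pearson) 95% intervals that cover counting error only, and tags of 1 library need not be independent molecules. Intervals of shares are exact binomial 95% intervals over regions. They take regions as independent draws, which neighbouring regions of the same libraries need not be, and they do not cover the spread between animals.

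H3K4me3 marks the starts of genes that are active or poised, where it usually forms tall, narrow peaks over CpG-rich DNA, and it is sparse over silent heterochromatin and between genes. Mll, now named Kmt2a, is one of the enzymes that place methyl groups on this lysine, and it is known for keeping Hox genes on in blood progenitors. The partial tandem duplication repeats an N-terminal part of the protein within the gene and occurs in acute myeloid leukaemia. Gene positions of the mm9 build were not used here, so the regions are named by position, and which genes or repeats lie under them was not analysed here.

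The block was one of the most crowded stretches of the list, and it was made of many small regions rather than a few broad ones. It held 120 regions per Mb, 102 in the Mb from 23 and 138 in the Mb from 24, whereas the 2562 1-Mb bins of the autosomes, X and Y that held at least 1 but fewer than 100 regions had a median of 12. The block was picked for its crowding and exceeds all of those bins by the way they were cut. In all, 19 bins reached 100 regions, and the bins of the block ranked 19 and 11 among them. Together the regions covered 178191 bases, or 8.91% of the window. The median distance to the preceding region was 4385.5 bases (quartiles 1851 and 10292.8), against 24835 bases for all other listed regions.

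Regions were spread over the whole window. Each of the 20 bins of 100 kb held between 5 and 19 regions (median 11.5), the fewest in the bin from 24000000 and the most in that from 24500000. The widest gap without a region ran for 69978 bases up to 24055526, and the second for 60097 bases up to 23735533. Of the 239 gaps between neighbours, 130 were shorter than 5000 bases and 22 shorter than 1000 bases. Joined at gaps under 5000 bases, the regions formed 110 groups, of which 58 were single regions and 10 held at least 5. The largest group had 9 regions from chr12:24506034-24534873, with 331.8 scaled Mll-PTD tags against 31 WT tags.

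The limits of the window were not natural edges on the low side. The 6 Mb before it, from 17 to 23 Mb, held 393 regions (65.5 per Mb), with 81 in the Mb from 22, and the last region before the block lay at chr12:22996085-22996741 with 25.5 scaled Mll-PTD tags and 0 WT tags. The first region inside lay at chr12:23019596-23020096, with 21.8 scaled Mll-PTD tags against 5 WT tags. On the high side the crowding ended soon after the window. The last region inside, chr12:24997611-24998362 (32.3 scaled Mll-PTD tags, 0 WT tags), was followed by chr12:25001079-25001579 (24.8 against 0). The 100-kb bin from 25000000 still held 12 regions, the next held 1, the Mb from 25 held 22 in all and the Mb from 27 held 0.

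**Figure D1:**
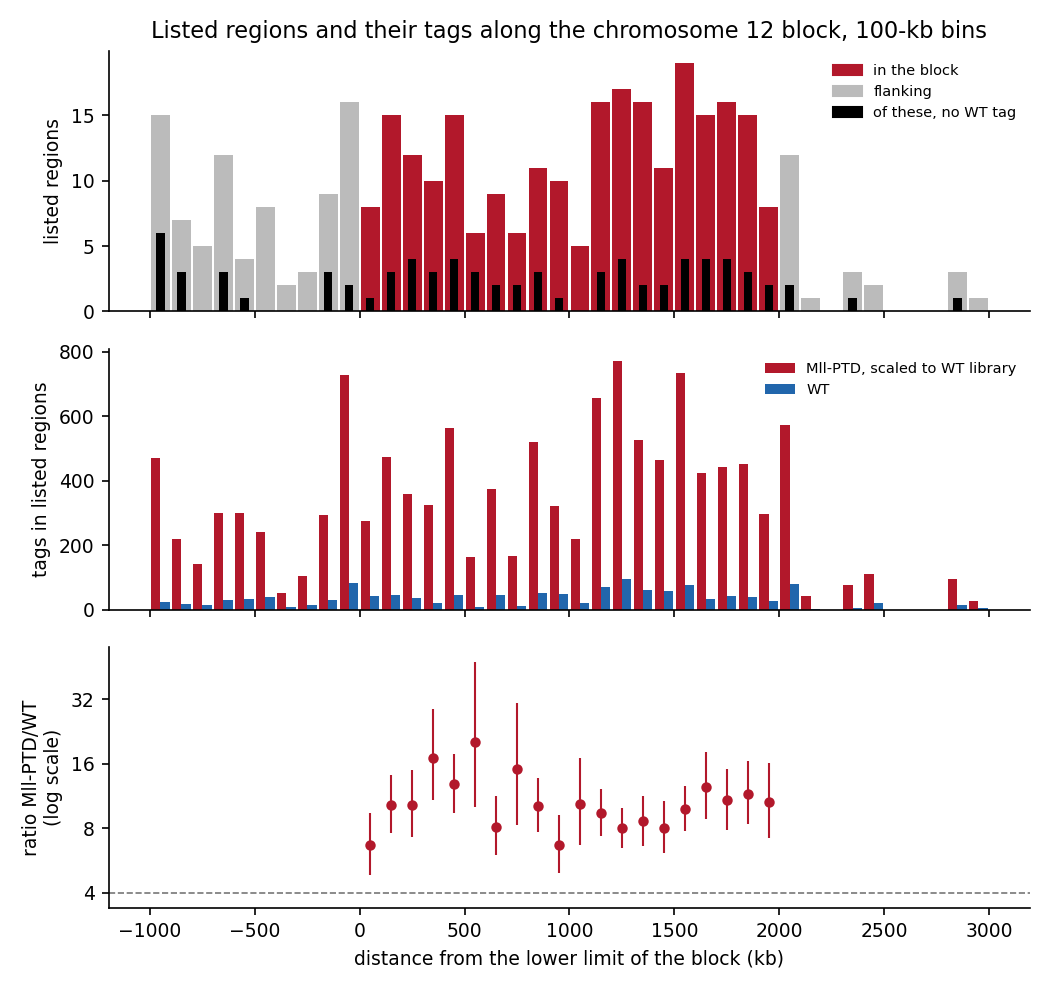
Listed regions per 100 kb (top, with those lacking a WT tag in black), their tags in both libraries (middle) and the ratio of summed tags with its exact 95% interval (bottom, log scale, block bins, dashed line at the 4-fold threshold), against distance from the lower limit of the block in kb. Each of the 20 bins of the block held 5 to 19 regions, and beyond the upper limit the number dropped from 12 in the first bin to 1 in the second.

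Mll-PTD tags were close to the lowest level that the caller could list, and WT tags were few. Scaled Mll-PTD tags had a median of 28.5 per region (quartiles 24 and 37.0, range 20.3 to 261.1), and WT tags one of 3 (quartiles 1 and 5, range 0 to 31). Summed over the block, 11356 Mll-PTD tags (8520.7 after scaling) stood against 872 WT tags, a ratio of 9.77 (9.12 to 10.5), compared with 7.69 (7.66 to 7.72) in all other listed regions. Per kb of listed region this was 47.8 scaled Mll-PTD tags and 4.89 WT tags, against 58.6 and 7.61 in all other listed regions. Both summed levels were thus lower in the block, and the WT level by the larger factor. The median per region was 47.9 scaled Mll-PTD tags per kb, close to 49.6 in all other listed regions. For WT it was 4 against 6.36 tags per kb. If the tags of a library of the WT size were distributed evenly over 2000000000 bases, the genome size used in peak calling, there would be 21.8 in each kb. The regions held 2.19 times that level in Mll-PTD and 0.225 times that level in WT.

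Along the block the ratio of summed tags was at least 8 in 18 of the 20 bins of 100 kb, with a median of 10.3. It was lowest in the first bin, from 23000000, with 273.9 scaled Mll-PTD tags and 41 WT tags, at 6.68 (4.83 to 9.47), and next lowest in the bin from 23900000, at 6.71 (4.97 to 9.24). It was highest in the bin from 23500000, where 6 regions held 162.2 scaled Mll-PTD tags and 8 WT tags, at 20.3 (10.1 to 47.5). The intervals of the highest and the 2 lowest bins do not overlap, while that of the highest bin rests on the fewest WT tags of the 20. These bins were picked by the ratio itself, so the lack of overlap cannot show a difference along the block.

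The peaks inside the regions were low. The score of the tallest peak in a region, given by the caller in tags with a minimum of 30, had a median of 32 (quartiles 31 and 34) and lay between 30 and 39 in 227 of 240 regions (94.6%, against 82.2% of all other listed regions). The highest score in the block was 61, while 2125 other listed regions reached 50. The clonal fold, which measures how far tags pile up on the same positions, had a median of 0.78 (quartiles 0.73 and 0.823, highest 1.07) against 0.73 in all other listed regions. It exceeded 1 in 6 regions of the block (2.5%), against 3.47% of all other listed regions and 0.487% of those in the other crowded 1-Mb bins. In regions of 500 bases the medians were 0.78 and 0.74. What part pile-up has in the ratios was not tested.

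Over all 240 regions the median log2 ratio of Mll-PTD to WT tags, with a pseudocount of 1 on both sides, was 3.06 (quartiles 2.47 and 4.27, order-statistic 95% interval over regions 2.90 to 3.30), against 2.68 in all other listed regions. At least 8-fold more Mll-PTD tags by the authors' deposited fold, which sets 0 WT tags to 0.5, were listed in 152 regions (63.3%, 56.9% to 69.4%), where the share over the whole list was 47.0%. Other crowded stretches had similar shares, with 59.2% on chromosome 14 (42 to 45 Mb), 60.1% on chromosome 7 (21 to 24 Mb), 60.4% on chromosome 5 (94 to 96 Mb), 60.8% on chromosome 12 from 17 to 23 Mb and 55.99% over all other 1-Mb bins with at least 100 regions. With 0 WT tags set to 3, a more cautious bound, 135 regions reached it (56.2%, 49.7% to 62.6%), where the share over the whole list was 43.3%. By this bound the chromosome 7 and 5 blocks stood at 57.0% each, above the chromosome 12 block, and the other crowded bins at 51.6%. Among the 109 regions whose summed tags reached the median of the whole list, 64 had a deposited fold of at least 8 (58.7%, 48.9% to 68.1%), against 42.03% (41.36% to 42.7%) of the 20802 other regions above that median and 51.5% (49.1% to 53.99%) of the 1628 in the other crowded bins, which lies within the interval of the block.

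The ratio varied widely from region to region. Among the 186 regions with a WT tag it ran from 4 to 52.5 with a median of 8.09 (quartiles 6 and 14.2). It lay under 5 in 25 regions, from 5 to under 8 in 63, from 8 to under 16 in 58 and at 16 or more in 40. At the threshold that made the list, 4 regions had a deposited fold under 4.1. WT counts were small, with 30 regions holding 1 WT tag, 28 holding 2, 28 holding 3 and 24 holding 4. Mll-PTD tags followed the length of a region (Spearman's rho 0.89 across the 240 regions) more closely than WT tags did (0.37). Regions were called and joined from Mll-PTD peaks of at least 30 tags, so a rise of Mll-PTD tags with length is built into the list. The contrast with WT tags therefore says nothing about the genotypes. Across the same regions length and log2 ratio had a rho of 0.04. These regions share both libraries and are not replicates.

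**Figure D2:**
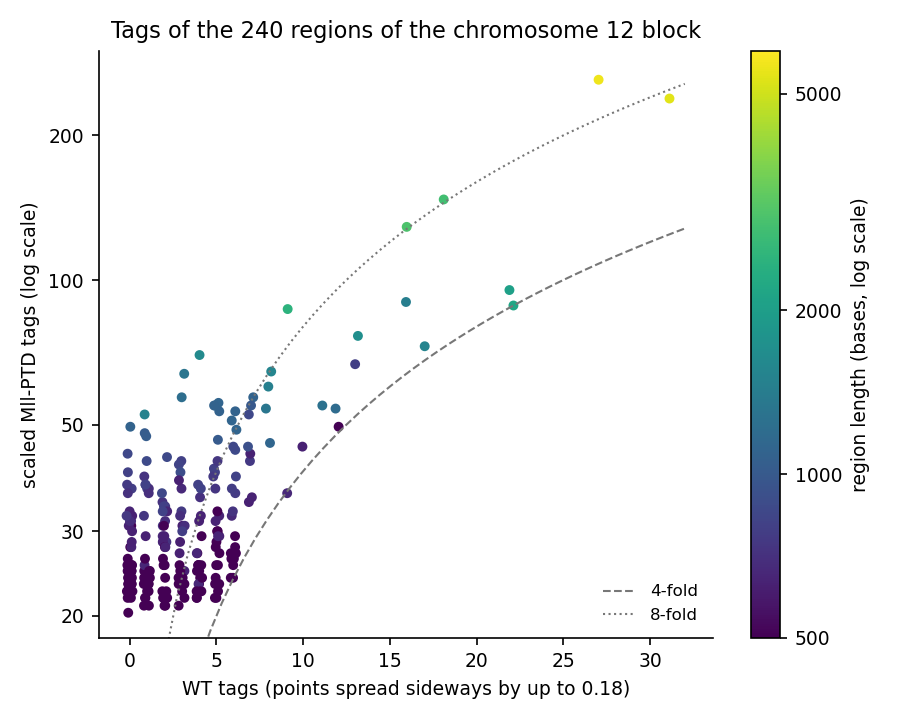
Scaled Mll-PTD tags (log scale) against WT tags in the 240 regions, coloured by length in bases, with lines at 4-fold and 8-fold. Most points sit at 20 to 50 Mll-PTD tags and 0 to 6 WT tags, and the regions of over 5000 bases stand apart at 261.1 against 27 and 238.6 against 31 tags.

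The 4 regions with the most tags were also the 4 longest, with ratios from 7.70 to 9.67. First was chr12:24191754-24197375, 5621 bases long, with 348 Mll-PTD tags (261.1 after scaling) and 27 WT tags, which gives a ratio of 9.67 (6.53 to 14.9). The second, chr12:23860795-23866144 of 5349 bases, had 238.6 scaled Mll-PTD tags and 31 WT tags, which gives 7.70 (5.31 to 11.5). Their intervals overlap, and both had low peaks, with scores of 34 and 30, and clonal folds of 0.63 and 0.62. These 2 regions took 5.86% of the Mll-PTD tags and 6.16% of the listed bases of the block, which is close to an equal density.

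Next in length came 3 regions with similar ratios. The region chr12:23648951-23651911 had 129 scaled Mll-PTD tags against 16 WT tags, a ratio of 8.06 (4.83 to 14.4). The region chr12:24281126-24283946 had 147.1 against 18, a ratio of 8.17 (5.04 to 14.1). The region chr12:24064908-24067379 had 87 against 9, a ratio of 9.67 (4.92 to 21.7), and the low density of 35.2 scaled Mll-PTD tags per kb. None of these 5 longest regions can be told from the ratio of the whole block, 9.77, which lies within each of their intervals.

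The long regions with the lowest ratios had more WT tags per kb than the block as a whole. They were picked for a low ratio. All listed regions were called from Mll-PTD peaks of a minimum height, which limits how few Mll-PTD tags a region can hold. The higher WT level of these long regions is thus largely built in and says nothing about the genotypes. The lowest ratio among regions of at least 1000 bases was 4.02 (2.54 to 6.67) at chr12:24425219-24427404, with 88.5 scaled Mll-PTD tags against 22 WT tags. It was followed by chr12:24363006-24364541, with 72.8 against 17 and a ratio of 4.28 (2.54 to 7.65), and by chr12:24233869-24235899, with 95.3 against 22 and a ratio of 4.33 (2.74 to 7.16). WT tags stood at 10.1, 11.1 and 10.8 per kb in these regions, above the 4.89 of the block. Scaled Mll-PTD tags stood at 40.5, 47.4 and 46.9 per kb, the first below and the others near the 47.8 of the block. The region chr12:24487285-24488717, seventh by tags, had both more Mll-PTD tags (90 scaled, 62.8 per kb) and more WT tags (16, 11.2 per kb), with a ratio of 5.62 (3.33 to 10.2).

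The highest ratios all rested on a single WT tag. At chr12:24869771-24871268 there were 52.5 scaled Mll-PTD tags against 1 WT tag, a ratio of 52.5 with an interval from 9.12 to 2104. Its neighbour chr12:24868162-24868979 had 37.5 against 1, a ratio of 37.5 with a lower limit of 6.43. The region chr12:23432391-23433416 had 48 against 1 (lower limit 8.32), and chr12:24415154-24416182 had 47.3 against 1 (lower limit 8.18). The other 4 of the 8 highest, chr12:23326564-23327439, chr12:23469511-23470228, chr12:23588972-23589717 and chr12:24099976-24100751, had 36.8 to 42 scaled Mll-PTD tags against 1. All 8 lower limits lay under the ratio of the whole block, so at this depth none of them is separated from it by counting error.

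The 5 tallest peaks, picked out after their values were seen, sat in regions with low ratios. The tallest, with a score of 61, lay in chr12:23953106-23953606, where 49.5 scaled Mll-PTD tags stood against 12 WT tags, a ratio of 4.12 (2.21 to 8.39). At 99 scaled Mll-PTD and 24 WT tags per kb, it was the densest region of the block in both libraries. The next, with a score of 55, lay in chr12:23904002-23904630 with 45 against 10 tags and a ratio of 4.5 (2.29 to 9.86). The other 3 scored 47 to 49 and had ratios of 4.28, 6 and 6.21. The next tallest peaks, with scores of 43 or 44, had mixed ratios of 6, 6.6, 12.8 and 36.8, the last on 1 WT tag. Whether peak score and ratio were related over the whole block was not tested.

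No WT tag was found in 54 of the 240 regions (22.5%, 17.4% to 28.3%), where the share over the whole list was 13.5%. A count of 0 allows up to 3 WT tags in each of them. The 54 regions were short, with 37 of them at the minimum length of 500 bases, and held 20.3 to 49.5 scaled Mll-PTD tags (median 24.8). Against that floor of 3 WT tags, with the Mll-PTD tags taken as exact, they were at least 6.77-fold to at least 16.5-fold higher. Of them, 37 reached 8-fold, which at a fixed floor depends on the Mll-PTD tags alone and says nothing about WT. The exact 95% intervals, which allow for counting error in both libraries, have lower limits below these bounds, from 5.13 to 13.1. Their Mll-PTD density was like that of the other 186 regions, at a median of 48 against 47.5 scaled tags per kb. Their clonal fold had a median of 0.80, against 0.765 in regions with a WT tag.

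First by tags among them was chr12:23260134-23261230, with 66 Mll-PTD tags (49.5 scaled) against 0 in WT, at least 16.5-fold higher against the floor of 3 WT tags and with an exact lower limit of 13.1. At 1096 bases it was also the only 1 of the 32 regions of at least 1000 bases without a WT tag. The next 2 regions along the chromosome, chr12:23282013-23282513 and chr12:23286579-23287079, held 30.8 and 27.8 scaled Mll-PTD tags and no WT tag either, which made the longest run of such regions in the block, 3 in a row. Then came chr12:24404637-24405490 (43.5 scaled tags, at least 14.5-fold higher against the floor, exact lower limit 11.4) and chr12:24420829-24421639 (39.8, at least 13.3-fold, exact lower limit 10.4). They were followed by chr12:23949849-23950613 (37.5, at least 12.5-fold, exact lower limit 9.80) and chr12:23382012-23382799 (36.8, at least 12.3-fold, exact lower limit 9.60).

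Regions without a WT tag were scattered among the others. Within the block, listed neighbours closer than 10000 bases also lacked a WT tag in 16 of 83 cases beside a region without one (19.3%), and in 67 of 273 cases beside a region with one (24.5%), counting each pair from both sides. In all other listed regions these shares were 22.2% of 3644 and 11.0% of 25772. In the 100-kb bins of the block the number of regions without a WT tag ran from 0 to 4, and 19 of 20 bins held at least 1. One stretch, chosen after its values were seen, held regions with unlike counts. The region chr12:24404637-24405490 had 43.5 scaled Mll-PTD tags against 0 WT tags. Next came chr12:24415154-24416182 with 47.3 against 1 and chr12:24420829-24421639 with 39.8 against 0. The region chr12:24425219-24427404 followed with 88.5 against 22. The exact lower limits of the ratio in the first 3, 11.4, 8.18 and 10.4, all exceed the upper limit in the fourth, 6.67. Since the stretch was picked by these values, the lack of overlap cannot show a difference between its regions.

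The larger share of regions without a WT tag was clearest at the short, low end of the block. At 500 bases it was 37 of 121 (30.6%, 22.5% to 39.6%), against 16.2% (15.7% to 16.6%) of 23541 other listed regions of that length and 22.3% (19.9% to 24.8%) of 1158 in the other crowded bins. Above 500 and up to 750 bases it was 18.5% (9.25% to 31.4%) against 15.5%, and above 750 and up to 1000 bases 18.2% (6.98% to 35.5%) against 12.6%. Above 1000 and up to 1500 bases it was 4.76% (0.1205% to 23.8%) against 5.41%. In each of these longer classes the share of all other listed regions lay within the interval of the block. With the length mix of the block, all other listed regions would have a share of 13.9% and the other crowded bins 17.3%, both below the 22.5% found. Among regions of 500 bases with 24 to 28 scaled Mll-PTD tags, 19 of 58 had no WT tag in the block (32.8%, 21.01% to 46.3%) and 16.9% (16.2% to 17.7%) of 10001 elsewhere, whereas 9 of 58 (15.5%) and 18.3% held 6 WT tags, the most that the 4-fold threshold allows there.

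By Mll-PTD level, 17 of 55 regions under 24 scaled tags had no WT tag (30.9%, 19.1% to 44.8%, against 17.4% of all other listed regions and 28.02% of those in the other crowded bins). From 24 to under 28 it was 20 of 64 (31.2%, 20.2% to 44.1%, against 16.9% and 23.5%), and from 28 to under 36 it was 11 of 49 (22.4%, 11.8% to 36.6%, against 14.5% and 16.6%). In these 3 classes the share of the other crowded bins lay within the interval of the block. From 36 to under 60 scaled tags it was 6 of 57 (10.5%, 3.96% to 21.5%), close to the 11.1% elsewhere. From 60 upwards it was 0 of 15, against 4.46% elsewhere. Among the 109 regions whose summed tags reached the median of the whole list the share was 9.17% (4.49% to 16.2%). It was 7.52% in other regions above that median, which lies within the interval of the block.

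**Figure D3:**
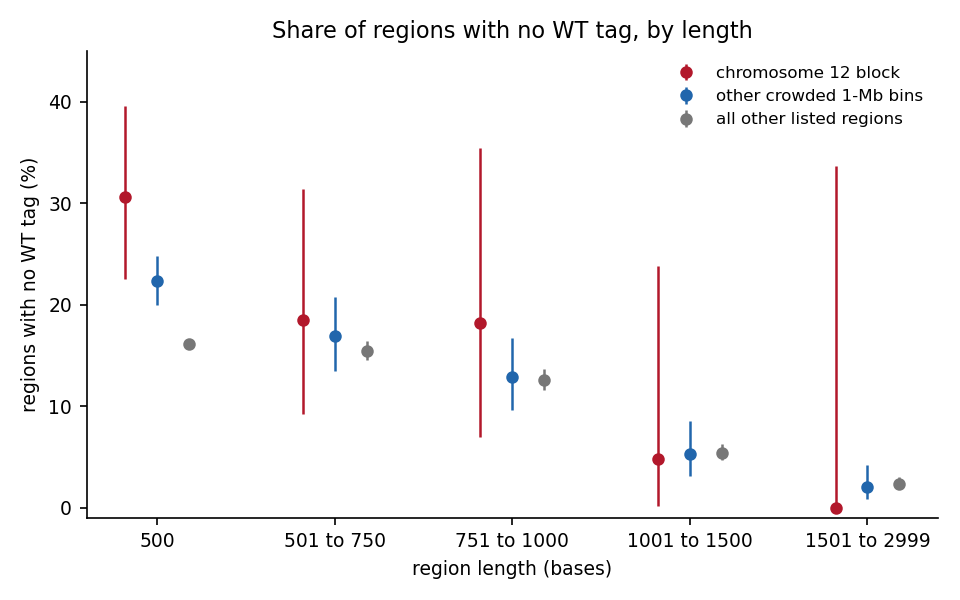
Share of regions with no WT tag in percent, by region length in bases, for the block, the other 1-Mb bins with at least 100 regions and all other listed regions, with exact 95% intervals. At 500 bases the block stood at 30.6%, above 22.3% and 16.2%, and in the longer classes its intervals span the other shares.

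Compared with the other crowded stretches, the block was at the low end of both tag levels. Among the 19 bins with at least 100 regions, the Mb from 23 had the lowest WT level, 4.72 tags per kb, and the lowest Mll-PTD level, 47.8, and it ranked first by the ratio of summed tags, at 10.1 (9.09 to 11.3). The Mb from 24 had 5.02 WT tags per kb, rank 4, 47.8 scaled Mll-PTD tags per kb, rank 2, and a ratio of 9.53 (8.71 to 10.4), rank 6. The other 17 bins ran from 4.801 to 8.98 WT tags per kb, from 47.9 to 60.7 scaled Mll-PTD tags per kb and from 6.66 to 10.1 in the ratio. The first ranks of the Mb from 23 are thus near ties, and the highest ratio of the others lies within its interval. By the share without a WT tag the bins of the block ranked 2 (25.5%) and 7 (20.3%), with the others from 4.59% to 26.1%. In the order of these shares, the intervals of neighbouring bins overlap.

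**Figure D4:**
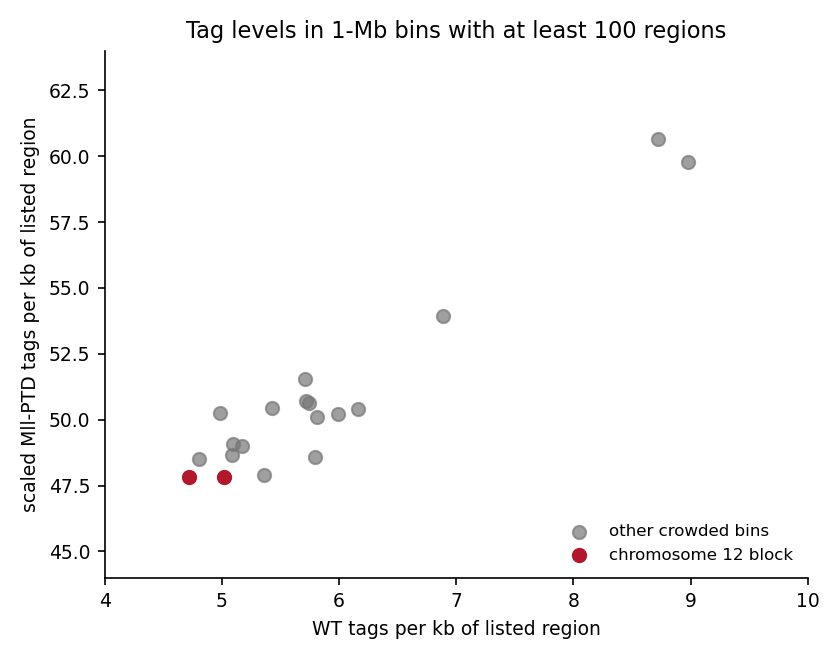
Scaled Mll-PTD tags per kb against WT tags per kb of listed region, for the 19 1-Mb bins with at least 100 regions (1 point per bin, axes not starting at 0). The points of the block lie at the lower left, at 4.72 and 5.02 WT tags per kb, and the other 17 bins reach 8.98.

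Set beside the blocks most like it, the chromosome 12 block was less dense and had shorter regions than some. It held 120 regions per Mb, against 182 on chromosome 14 (42 to 45 Mb), 162 on chromosome 7 (21 to 24 Mb) and 161.5 on chromosome 5 (94 to 96 Mb). Its median length was 500 bases, against 636, 629 and 638. The ratio of summed tags was 9.77 (9.12 to 10.5), against 8.67 (8.36 to 9.001) on chromosome 14, 9.14 (8.76 to 9.55) on chromosome 7 and 9.57 (9.07 to 10.1) on chromosome 5. The interval overlaps those of chromosomes 7 and 5 and not that of chromosome 14. No WT tag was found in 22.5% of its regions (17.4% to 28.3%), against 9.88% (7.37% to 12.9%) on chromosome 7, 18.1% (14.99% to 21.6%) on chromosome 14 and 18.6% (14.5% to 23.3%) on chromosome 5, so among these the interval is apart from that of chromosome 7 alone.

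The stretch just before the block on the same chromosome had similar values. The 393 regions from 17 to 23 Mb had a median length of 500 bases, 5.25 WT and 48.2 scaled Mll-PTD tags per kb and a median clonal fold of 0.77. Their ratio of summed tags was 9.18 (8.73 to 9.67) and 19.1% (15.3% to 23.3%) had no WT tag. Each of these shares and ratios overlaps the interval of the block. Across all other 1903 listed regions of chromosome 12 the ratio was 8.59 (8.41 to 8.77) and the share without a WT tag 15.6% (13.95% to 17.3%). The 32 regions from 25 to 28 Mb, past the end of the crowding, had 7.31 WT and 50.02 scaled Mll-PTD tags per kb and a ratio of 6.84 (5.91 to 7.97), below the interval of the block.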

How the data were processed

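The authors deposited 1 list of H3K4me3 regions. Per the file headers, HOMER's findPeaks ran with its histone style on Mll-PTD tags and took WT tags as input. The submitters' processing notes name the mm9 build, HOMER 4.7 and Bowtie 0.12.7. Peaks of 500 bases needed 30 tags and were joined into regions. The thresholds against WT were a fold of 4 and a Poisson p-value of 0.0001, per the file headers. The signal columns deposited by the authors give WT tags, with 0.5 for 0, and Mll-PTD tags after scaling to the size of the WT library. The fold ratio and the p-value (at most 8.11e-08 in the block) are the authors' deposited values and no test between genotypes. Clonal fold and peak score were used as deposited by the authors. No non-immunoprecipitated input was used here.

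Unscaled Mll-PTD tags, which entered the intervals of the ratios, were recovered by dividing by 0.750, the estimated scale between the libraries. They came out whole, with a tolerance of 0.1, in 100.0% of regions. The window, the lists and the comparisons were chosen with earlier results of these data known. Named regions are the 8 with the most tags, the 8 with the highest ratio among those with a WT tag and at least the median tags of the block, the 5 longest, the 5 with no WT tag and the most tags, and the 3 lowest ratios from 1000 bases up. Interval code was tested on simulated data. Alternatives were other pseudocounts, stricter folds and p-values, merged regions and filters on tags or length. Software was scipy 1.17.1, numpy 2.4.6, matplotlib 3.10.9 and pandas 2.3.3 under Python 3.11.15.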

Additional observations from a re-analysis of the deposited data

How the results depend on the processing

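The 240 regions became 152 at a deposited fold of at least 8 and 109 with summed tags at or above the median of the whole list, and merging or a p-value of at most 1e-10 kept the number within 1.5 times. Of the 152 regions at 8-fold, 64 were among those 109. The median log2 ratio of 3.06 was 2.24 with a pseudocount of 5 and 2.80 in regions with a WT tag; the 4-fold threshold alone keeps it above 0. The ratio of summed tags, 9.77, was 10.6 without the 10 regions with the most tags, 8.08 in regions with a WT tag and 8.72 at or above the median tags. Regions without a WT tag, 22.5% of the block, made up 9.17% at or above the median tags and 3.125% in regions of at least 1000 bases. The median length of 500 bases became 787 at or above the median tags and 629 with regions less than 1000 bases apart merged. These filters on tags, length or WT tags remove short regions or regions without a WT tag by construction. Of the 22 named regions, 5 (those with no WT tag) left their counting interval with a pseudocount of 5, and 0 changed sign. No paired analysis was possible because there was 1 library of each genotype. Depth is the limit for single regions, with a median of 3 WT tags.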
